A study of Arabidopsis thaliana with 30 samples.

Results

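Xyloglucan endotransglucosylase/hydrolase (XTH) genes were followed in Arabidopsis thaliana seedlings with mutations in the mRNA cap genes DXO1 and RNMT1, with and without abscisic acid (ABA). The family was taken as the rows of the count table with the locus identifiers of XTH1 to XTH33, a rule that uses no measured value, although the family was picked with earlier results of these data known. All 33 were found among 32833 genes. Of these, 29 had enough counts to be tested in at least 1 comparison and 4 (XTH1, XTH2, XTH3 and XTH29) did not.

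Xyloglucan is a branched hemicellulose that coats and tethers cellulose microfibrils in the primary wall of growing cells. XTH enzymes cut a xyloglucan backbone and either join the new end to another xyloglucan chain (endotransglucosylase activity) or to water (hydrolase activity), and thereby remodel the wall as cells expand or after growth has stopped. Most members act as endotransglucosylases. The small clade IIIA (XTH31 and XTH32) is the one associated with hydrolase activity, and XTH22 was first known as TCH4, a gene induced by touch. ABA is the stress hormone that slows germination and seedling growth.

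The samples were whole 5-day-old seedlings that had been moved to liquid Murashige and Skoog medium with 50 μM ABA (ABA) or without it (mock) for 3 h before freezing. The 5 genotypes are dxo1, a mutant of the decapping enzyme gene DXO1; dxo1/cDXO1 (DXO1-C/dxo1 in the labels), the same mutant carrying the C-terminal catalytic domain of DXO1; rnmt1-3 (labelled rnmt1), a knockdown allele of the cap methyltransferase gene RNMT1; dxo1/NTE (DXO1-N/dxo1), dxo1 carrying the non-catalytic N-terminal extension; and the wild type Col-0 (WT). Both transgenes were driven by the DXO1 promoter. The transgenic groups and dxo1 all carry the dxo1 mutation, and the first 3 genotypes are called capping mutants here. Each genotype and treatment had 3 poly(A) libraries, 30 in all. The methods call the libraries of a group biological replicates. Whether they came from separate plant cultures is not given in the sources used here, and p-values measure the spread between these libraries.

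Total counts ran from 17961410 to 23249299 per library. Counts over DXO1 lay at 8.97 to 11.8 RPKM in dxo1, 109 to 148 RPKM in both transgenic groups and 20.1 to 25.6 RPKM in rnmt1-3 and WT, where RPKM is the count per kilobase of exon, scaled to library size by TMM (trimmed mean of M values). RNMT1 was at 7.86 to 9.45 RPKM in rnmt1-3 against 8.92 to 12.5 RPKM in WT, with overlapping ranges, and in dxo1/NTE it was at 20.2, 33.8 and 11.4 RPKM with ABA and 15.3, 11.9 and 9.63 RPKM in mock. WT mock replicate 1 stood apart: the common dispersion of the WT mock group was 0.0399 with it and 0.00491 without it, against 0.00386 to 0.0102 in the other 9 groups. Shoot markers were high (12144 to 16464 RPKM summed over RBCS1A, CAB1 and LHCB2.1), 7 root hair markers summed to 24.7 to 67.8 RPKM, and seed storage and flower markers stayed at or under 4.68 and 1.11 RPKM summed. Genes of low oxygen differed between groups and varied widely within them. In mock, 6 of them summed to 63.6 to 552 RPKM in dxo1, 38.8 to 309 RPKM in dxo1/cDXO1, 67.8 to 389 RPKM in rnmt1-3 and 190.2 to 968 RPKM in dxo1/NTE, against 270.2 to 1249.8 RPKM in WT. With ABA they summed to 70.7 to 93.1 RPKM, 59.5 to 67.2 RPKM, 92.4 to 141 RPKM and 153 to 321 RPKM in the same order, against 189 to 551 RPKM in WT. Replicate 3 had the highest sum in every mock group, and in every ABA group but WT. Against WT in mock, 0, 3, 3 and 2 of the 6 were called lower, beside 11.8%, 11.4%, 8.76% and 0.755% of all genes. With ABA 3, 3, 4 and 0 were lower, beside 21.2%, 21.8%, 16.6% and 3.38%. ABA lowered 5, 4, 2 and 3 in these genotypes and 4 in WT, beside 11.8%, 10.9%, 11.4%, 13.4% and 6.47%. The part of these 6 genes in the XTH values was not tested. In these bulk samples fewer cells of a type and less RNA per cell cannot be told apart.

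XTH proteins share a short active site in which glutamate, aspartate and glutamate codons alternate with other codons. The codons are found in this spacing in 32 of the 33 members (XTH11 is the exception) and are shown in capitals, within 30 coding bases of TAIR10.1 (RefSeq), for the most abundant member (XTH24), a neighbouring pair on chromosome 5 that ABA lowered (XTH12 and XTH13), a member raised by ABA in every genotype (XTH19), the clade IIIA member XTH31 and XTH33.
XTH24 (AT4G30270, minus strand, chr4:14820039-14820068): gatGAGattGATtttGAGttcttgggtaat
XTH12 (AT5G57530, minus strand, chr5:23301142-23301171): gatGAGattGATttcGAGttcttgggtaac
XTH13 (AT5G57540, minus strand, chr5:23303642-23303671): gatGAAatcGACttcGAGttcttgggtaat
XTH19 (AT4G30290, minus strand, chr4:14829558-14829587): gatGAGattGATttcGAGtttttggggaac
XTH31 (AT3G44990, minus strand, chr3:16447879-16447908): gatGAGgtcGATatcGAGtttctagggaca
XTH33 (AT1G10550, minus strand, chr1:3480303-3480332): gacGAGataGACataGAAttgttgggtaga
Several members are close copies. The longest run of identical bases between transcripts was 68 for XTH18 and XTH19, 51 for XTH17 and XTH19, and 47 for both XTH12 with XTH13 and XTH17 with XTH18. How reads that match more than 1 gene were counted is not given in the sources used here, so levels within these pairs are less certain than the rest.

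The family was dominated by 5 members. Averaged over the 30 libraries, XTH24 stood at 346 RPKM, XTH4 at 270 RPKM, XTH7 at 215 RPKM, XTH9 at 104 RPKM and XTH27 at 101 RPKM, and together they made up 70.9% of the summed XTH level (65.4% to 76.3% per library). XTH9 and XTH27 were close to each other and their ranges overlapped (84.4 to 134 RPKM and 75.5 to 142 RPKM). At the other end, XTH1 had 0 counts in every library, XTH3 had at most 1 count and XTH2 at most 3 counts, which is no measurable level at this depth. XTH29 had 0 to 6 counts. The summed level of the family was 1132 to 1814 RPKM, and the plot of levels in every library shows the single members behind it.

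**Figure D1:**
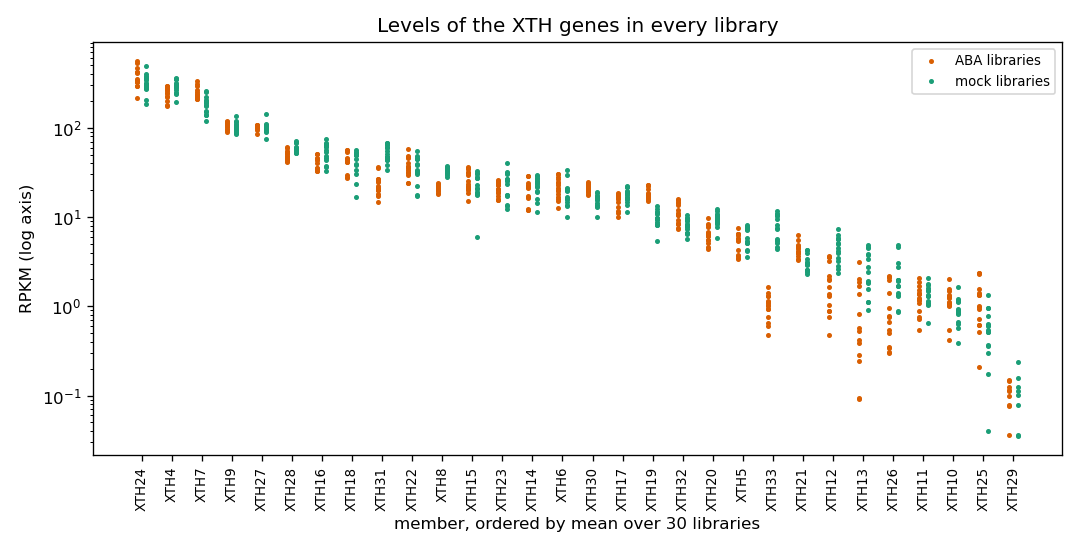
RPKM on a log axis for the 30 members with more than 3 counts in some library, ordered by their mean, with 1 point per library (ABA libraries left, mock libraries right; values of 0 are not drawn). XTH33 is the member whose ABA and mock libraries separate most clearly, and XTH12, XTH13 and XTH26 lie below 10 RPKM with wide spreads.

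ABA for 3 h changed 10 to 16 XTH genes in each genotype, and lowered more of them than it raised. By the quasi-likelihood test of edgeR (called at an adjusted p under 0.05, with Benjamini-Hochberg adjustment across every gene tested), ABA raised 5 and lowered 10 of 29 tested members in dxo1, beside 14.1% and 11.8% of all tested genes. In dxo1/cDXO1 5 rose and 11 fell (13.6% and 10.9% of all genes), in rnmt1-3 5 rose and 10 fell of 28 tested (14.7% and 11.4%), and in dxo1/NTE 6 rose and 7 fell (15.4% and 13.4%). In WT 3 rose and 7 fell, beside 10% and 6.47% of all genes. Of the tested members, 5 fell in all genotypes (XTH8, XTH13, XTH20, XTH31 and XTH33), XTH7 and XTH19 rose in all 5, and no member was called in opposite directions in any 2 genotypes. The share of all genes called alike in all 5 was not worked out, so these counts cannot be read as particular to the family. The median log2 change of the tested members was -0.19 in dxo1, -0.15 in dxo1/cDXO1, -0.14 in rnmt1-3, 0.07 in dxo1/NTE and -0.06 in WT, against a median between -0.02 and -0.00 over all genes. In WT the count was 16 without WT mock replicate 1, where 25% of all genes were called, and 6 without WT ABA replicate 3.

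**Figure D2:**
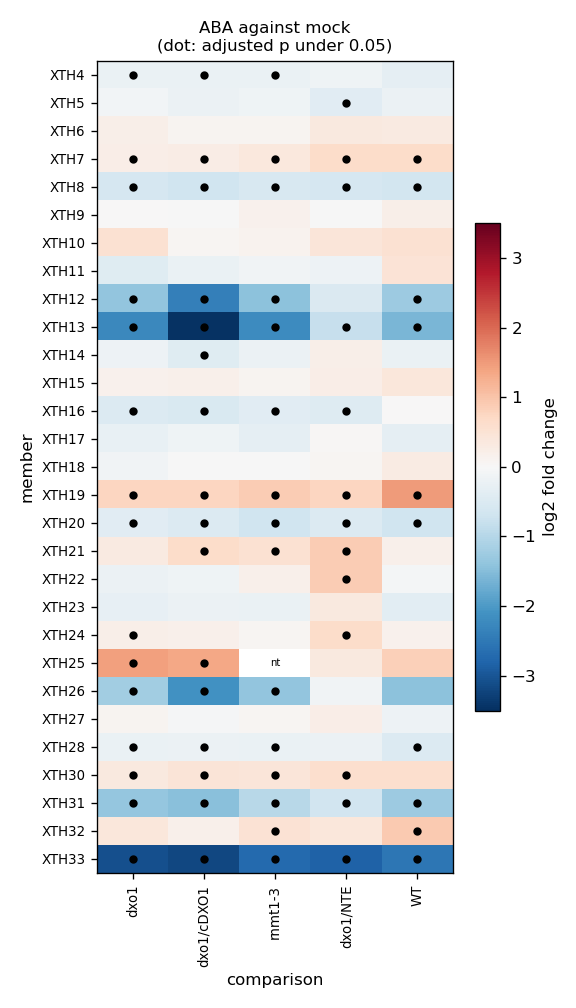
Log2 fold change of ABA over mock for the 29 tested members (rows) in each genotype (columns), with red for higher and blue for lower in ABA, a dot where the adjusted p was under 0.05, and nt for not tested. XTH33, XTH31, XTH13, XTH20 and XTH8 are blue with a dot in all 5 columns, and XTH7 and XTH19 red with a dot.

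XTH33 fell most steadily. It is the member described as anchored in the plasma membrane. In dxo1 it had 1.01, 1.63 and 1.10 RPKM with ABA against 10.5, 10.9 and 10.2 RPKM in mock. In dxo1/cDXO1 it had 0.922, 1.41 and 1.13 RPKM with ABA against 9.40, 11.7 and 10.7 RPKM in mock. The same gap was seen in rnmt1-3, with 1.09, 1.02 and 0.647 RPKM in ABA and 5.54, 5.32 and 7.51 RPKM in mock. In dxo1/NTE the values were 0.481, 1.30 and 0.604 RPKM with ABA and 7.41, 4.63 and 5.61 RPKM in mock, and in WT 0.753, 1.29 and 0.941 RPKM with ABA and 8.22, 4.40 and 5.13 RPKM in mock. In none of the genotypes did an ABA library reach the lowest mock library. The log2 fold changes were -3.07 ± 0.18 (SE), -3.20 ± 0.19, -2.71 ± 0.24 and -2.83 ± 0.31 in the order dxo1, dxo1/cDXO1, rnmt1-3 and dxo1/NTE, and -2.53 ± 0.32 in WT, with edgeR adjusted p from 2.34e-09 in dxo1 to 0.000762 in WT.

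XTH31, of the clade associated with hydrolase activity and known for a part in aluminium sensitivity, stood at a higher level and fell as well. It had 20.8, 14.7 and 17.0 RPKM with ABA against 44.1, 47.0 and 44.0 RPKM in mock dxo1, and 19.8, 19.8 and 18 RPKM against 50.3, 47.3 and 59.7 RPKM in dxo1/cDXO1. In rnmt1-3 it had 35.8, 35.2 and 26.9 RPKM with ABA and 67.1, 61.2 and 66.7 RPKM in mock, and in dxo1/NTE 24.6, 25.1 and 22.3 RPKM with ABA and 43.5, 33.3 and 38.0 RPKM in mock. WT had 21.0, 26.8 and 19.98 RPKM with ABA and 46.9, 63.7 and 54.9 RPKM in mock. ABA and mock libraries did not overlap in any genotype. The log2 fold change was -1.36 in dxo1, -1.45 in dxo1/cDXO1, -0.98 in rnmt1-3, -0.66 in dxo1/NTE and -1.26 in WT, each with SE between 0.09 and 0.15. Its clade IIIA partner XTH32 was called higher with ABA only in rnmt1-3 (log2 0.50 ± 0.09, adjusted p = 0.000884) and WT (log2 0.92 ± 0.22, adjusted p = 0.0223), and the genotype by ABA term of this gene was not called for any genotype. XTH8 fell by a like amount everywhere, with log2 fold changes of -0.59, -0.69, -0.56 and -0.58 in the 4 mutant backgrounds and -0.64 in WT. XTH20, another root member, was between -0.70 (rnmt1-3) and -0.40 (dxo1), where its libraries overlapped, and the adjusted p was 0.0499.

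XTH12, XTH13, XTH14 and XTH26 are root members, expressed where root epidermal cells elongate and form hairs, and 3 of them fell strongly with ABA. XTH13 had 0.286, 0.577 and 0.416 RPKM with ABA against 2.44, 1.84 and 1.93 RPKM in mock dxo1. In dxo1/cDXO1 it had 0.0912, 0.385 and 0 RPKM with ABA, from 2, 8 and 0 counts, against 0.917, 1.56 and 2.77 RPKM in mock. In rnmt1-3 it had 0.245, 0.533 and 0.0939 RPKM with ABA and 1.89, 1.12 and 1.11 RPKM in mock. ABA libraries of XTH13 lay below its mock libraries in all 5 genotypes. In dxo1/NTE XTH13 had 1.86, 3.14 and 1.69 RPKM with ABA against 4.88, 3.73 and 3.42 RPKM in mock, and in WT 0.819, 1.36 and 2.0 RPKM against 4.6, 4.46 and 3.85 RPKM. The log2 fold changes were -2.26 ± 0.36 in dxo1, -3.45 ± 0.67 in dxo1/cDXO1, -2.19 ± 0.49 in rnmt1-3, -0.82 ± 0.26 in dxo1/NTE and -1.59 ± 0.31 in WT (SE).

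XTH12, the tandem neighbour of XTH13, had 1.66, 1.95 and 2.01 RPKM with ABA against 5.72, 4.96 and 4.16 RPKM in mock dxo1. In dxo1/cDXO1 it had 0.884, 0.885 and 0.752 RPKM with ABA and 3.95, 3.45 and 5.81 RPKM in mock, and in rnmt1-3 0.474, 1.38 and 1.05 RPKM with ABA and 2.36, 2.81 and 2.61 RPKM in mock. WT had 1.31, 3.25 and 2.16 RPKM with ABA and 4.5, 6.28 and 5.69 RPKM in mock. All 4 fell, by 1.39, 2.38, 1.42 and 1.26 on the log2 scale in that order. The WT call (edgeR adjusted p = 0.0247) was lost in 4 of 6 fits that left out 1 library, those without WT mock replicate 2 or 3 or WT ABA replicate 1 or 3 (highest adjusted p 0.109). In dxo1/NTE the libraries overlapped, with 3.55, 3.69 and 3.55 RPKM in ABA and 7.32, 3.23 and 5.05 RPKM in mock (log2 -0.52 ± 0.25, adjusted p = 0.135).

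XTH26 was lower with ABA in the capping mutants, at 0.761, 0.542 and 0.956 RPKM against 1.97, 1.68 and 1.69 RPKM in mock dxo1. In dxo1/cDXO1 it had 0.300, 0.497 and 0.343 RPKM with ABA and 1.42, 0.878 and 2.73 RPKM in mock, and in rnmt1-3 0.307, 0.668 and 0.353 RPKM with ABA and 0.864, 1.34 and 1.30 RPKM in mock. The log2 fold changes of -1.23, -2.13 and -1.39 passed the test in these 3, although in rnmt1-3 the call was lost without mock replicate 2 or ABA replicate 1 or 3 (highest adjusted p 0.0903). In WT XTH26 had 0.770, 1.41 and 1.97 RPKM with ABA and 1.90, 4.63 and 4.88 RPKM in mock, the lowest of which is replicate 1, and its change was not called (log2 -1.42 ± 0.43, adjusted p = 0.0556). Without that library it was. In dxo1/NTE the values were 2.15, 2.11 and 2.16 RPKM with ABA and 3.07, 1.98 and 1.97 RPKM in mock (log2 -0.12 ± 0.25, adjusted p = 0.774). XTH14 was called with ABA only in dxo1/cDXO1 (log2 -0.41 ± 0.14, adjusted p = 0.0427, libraries overlapping). Of the 7 root hair markers, ABA lowered 1 in dxo1, 3 in dxo1/cDXO1 and none in rnmt1-3, dxo1/NTE or WT. Their summed level was 47.8 to 49.9 RPKM with ABA and 51.4 to 60.0 RPKM in mock dxo1, 31.7 to 43.1 RPKM and 45.7 to 58.7 RPKM in dxo1/cDXO1, 24.7 to 31.0 RPKM and 29.2 to 32.4 RPKM in rnmt1-3, 52.6 to 65.8 RPKM and 38.5 to 67.8 RPKM in dxo1/NTE, and 40.0 to 58.4 RPKM and 28.9 to 50.4 RPKM in WT. The part of root hair cells in the change of these XTH genes was not tested.

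**Figure D3:**
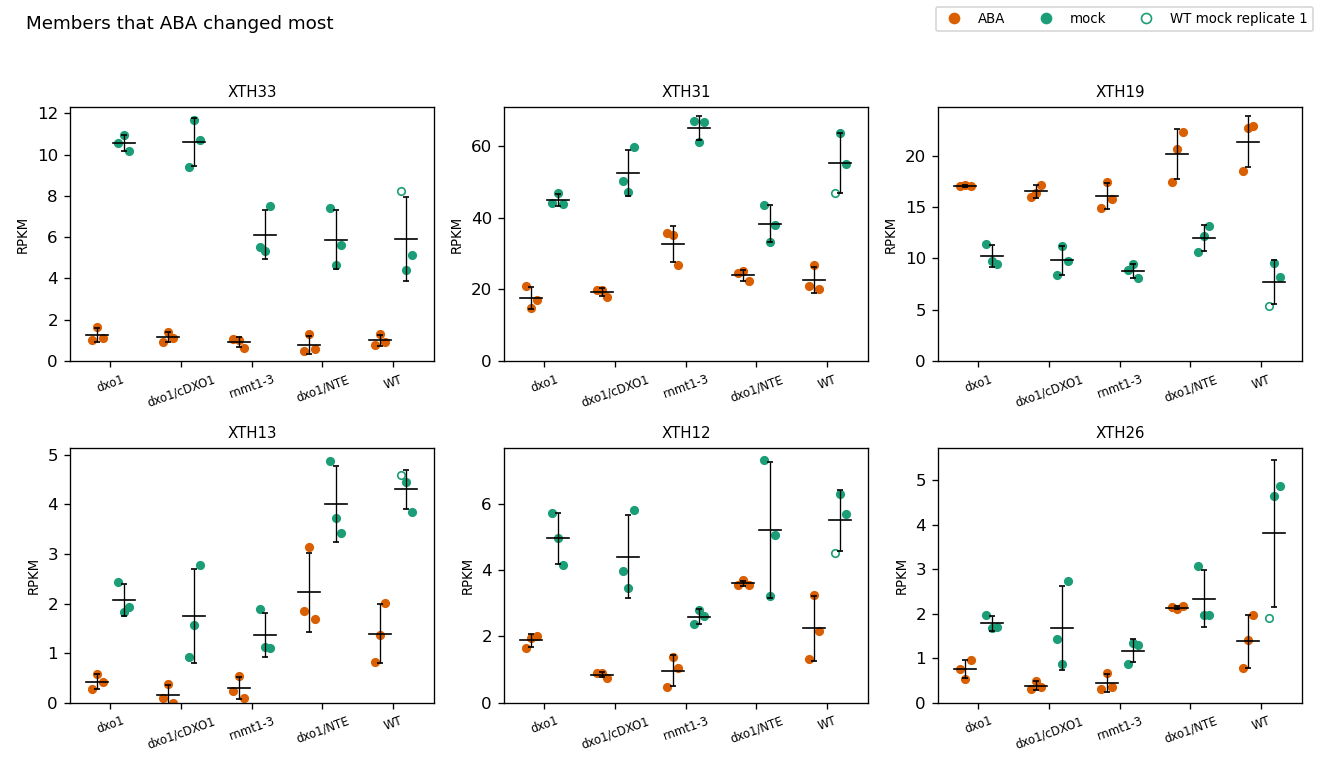
RPKM (from 0) of 6 members in each library, with ABA left of mock within each genotype, points for libraries, a line for the mean and bars for the SD (n = 3); the open point is WT mock replicate 1. XTH33 and XTH31 drop and XTH19 climbs in all 5 genotypes, while XTH12 and XTH26 separate in the capping mutants and overlap in dxo1/NTE.

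The sequences upstream of these genes were read for ACGTG, the core of the ABA-responsive element, on both strands. In the 300 bases before the annotated start, 6 of the 33 members held it, while 25.6% of 27443 protein-coding genes did. CACGTG (the G-box), which contains this core, was in none of the 33 (7.09% of all genes) and the motif known as the root hair element in none (0.915% of all genes). The matches of the members that ABA changed in at least 1 genotype are shown in the direction of the gene with the motif in capitals (CACGT is the core read on the opposite strand), since they include XTH13 and XTH31, which fell in every genotype, and XTH14, which did not.
XTH13 (chr5:23304171-23304191, minus strand, 88 bases upstream): tagactacCACGTaggtaatg
XTH14 (chr4:13130222-13130242, plus strand, 61 bases upstream): aagactacCACGTcgataatg
XTH25 (chr5:23306573-23306593, minus strand, 145 bases upstream): aacaagcaCACGTagcatgag
XTH26 (chr4:14244177-14244197, plus strand, 105 bases upstream): attagatgCACGTcaattgtc
XTH31 (chr3:16449112-16449132, minus strand, 280 bases upstream): tttgaatgACGTGataggagc
The remaining member with a match, XTH6, was not called with ABA in any genotype. XTH33, with the largest ABA change in WT, dxo1, rnmt1-3 and dxo1/NTE, had no match. A match or its absence in this window says nothing about binding.

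Fewer members rose with ABA. XTH19, a root member close in sequence to XTH18, had 17.0, 17.2 and 17.0 RPKM with ABA against 11.4, 9.77 and 9.44 RPKM in mock dxo1, and 18.5, 22.7 and 22.9 RPKM against 5.34, 9.57 and 8.22 RPKM in WT. No ABA library overlapped a mock library in any genotype. The log2 fold changes were 0.74 ± 0.10 in dxo1, 0.75 ± 0.11 in dxo1/cDXO1, 0.88 ± 0.10 in rnmt1-3, 0.76 ± 0.11 in dxo1/NTE and 1.5 ± 0.21 in WT (SE). XTH7, one of the abundant members, rose by 0.24, 0.26, 0.38 and 0.65 on the log2 scale in dxo1, dxo1/cDXO1, rnmt1-3 and dxo1/NTE and by 0.64 in WT. XTH30, implicated in salt tolerance, rose in the 4 genotypes other than WT (log2 0.34 to 0.59) and gave 0.59 (adjusted p = 0.11) in WT. Of the other members changed by less than 2-fold, XTH28 was called lower in 4 genotypes, XTH4 lower in 3, XTH5 lower in 1 and XTH24 higher in 2. XTH10, XTH11 and XTH27 were not called in any of the main comparisons.

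XTH25 rose in dxo1, with 1.34, 1.58 and 2.38 RPKM in ABA and 0.963, 0.363 and 0.617 RPKM in mock (log2 1.43 ± 0.38, adjusted p = 0.0104), and in dxo1/cDXO1, with 1.41, 1.35 and 2.31 RPKM in ABA and 0.946, 0.542 and 0.511 RPKM in mock (log2 1.34 ± 0.37, adjusted p = 0.0142). These are low levels, and the calls were lost without dxo1 ABA replicate 3 (adjusted p up to 0.0718), and without dxo1/cDXO1 mock replicate 2 or ABA replicate 3 (up to 0.106). The touch gene XTH22 was called with ABA in dxo1/NTE alone, at 48.6, 40.7 and 36.1 RPKM against 33.6, 17.0 and 17.5 RPKM in mock (log2 0.89 ± 0.20, adjusted p = 0.00327). XTH21, needed for normal root growth, rose in dxo1/cDXO1, rnmt1-3 and dxo1/NTE by 0.65, 0.54 and 0.89. Of 7 other touch- and handling-responsive genes, ABA raised 1 and lowered none in dxo1/NTE, with a list median of 0.24 on the log2 scale, and their part in the XTH22 change was not tested.

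Whether ABA acted differently in a mutant than in WT was tested with a genotype by ABA term in edgeR, and no XTH member was called for any genotype, beside 0.272% of all tested genes for dxo1, 0.233% for dxo1/cDXO1, 0.126% for rnmt1-3 and 0% for dxo1/NTE. At an unadjusted p under 0.05, 4 members passed for dxo1, 7 for dxo1/cDXO1, 3 for rnmt1-3 and 7 for dxo1/NTE, where 10%, 10%, 7.38% and 11.5% of all genes did. XTH16, XTH19 and XTH28 were among them for every genotype. DESeq2 called 2 members for dxo1 (XTH7 and XTH16), 1 for dxo1/cDXO1 and 1 for dxo1/NTE (XTH16 in both) and none for rnmt1-3, where it called 0.886%, 0.783%, 0.63% and 0.464% of all genes for dxo1, dxo1/cDXO1, dxo1/NTE and rnmt1-3. XTH16, a clade II member, was thus the one called by DESeq2 for 3 genotypes. All these terms share the same WT libraries, so the 3 calls are not independent. It had 45.0, 46.2 and 44.1 RPKM with ABA and 66.3, 67.1 and 56.7 RPKM in mock dxo1, 44.2, 40.3 and 50.2 RPKM and 63.9, 61.0 and 52.9 RPKM in rnmt1-3, and 35.3, 35.6 and 33.7 RPKM and 37.5, 33.1 and 35.9 RPKM in WT. In dxo1/cDXO1 it had 50.5, 45.0 and 43.6 RPKM with ABA and 65.4, 75.1 and 62.8 RPKM in mock, and in dxo1/NTE 33, 33.7 and 32.8 RPKM with ABA and 46.0, 43.3 and 47.7 RPKM in mock. It fell by 0.39 to 0.55 on the log2 scale in the 4 genotypes other than WT, and gave 0.00 in WT (adjusted p = 0.988). Without WT mock replicate 1, edgeR called the XTH16 term for dxo1, dxo1/cDXO1 and dxo1/NTE and no other member, beside 1.84%, 1.61% and 0.975% of all genes, and without WT ABA replicate 1 it called 1 member for dxo1/cDXO1.

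The next comparisons set each mutant against WT without ABA, and share the 3 WT mock libraries. Members called higher outnumbered those called lower most clearly in dxo1/cDXO1, while in dxo1 the share called higher was close to that of all genes. In dxo1 4 of 29 tested members were higher and 1 was lower, beside 13% and 11.8% of all genes. In dxo1/cDXO1 8 were higher and 1 was lower (12.1% and 11.4% of all genes), and in rnmt1-3 5 were higher and 4 lower of 28 tested (10.1% and 8.76%). The counts turned on WT mock replicate 1: without it 8 were higher and 4 lower in dxo1 (22.4% and 21.2% of all genes), 9 and 4 in dxo1/cDXO1 (20.6% and 19.5%), and 8 and 5 in rnmt1-3 (19.2% and 17.6%). With each other library left out in turn, the total fell to as few as 3 in dxo1 (without WT mock replicate 3 or any dxo1 library), 2 in dxo1/cDXO1 (without its replicate 2) and 6 in rnmt1-3. It was 4 in dxo1/cDXO1 without WT mock replicate 3, and 3 without its replicate 1 or 3.

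XTH18, a root member, was higher in all 3. It had 51.2, 49.5 and 56.8 RPKM in dxo1, 39.5, 37.9 and 51.9 RPKM in dxo1/cDXO1 and 52.8, 49.7 and 50.7 RPKM in rnmt1-3, against 16.8, 23.6 and 30.7 RPKM in WT. The lowest mutant library lay above the highest WT library. The differences were log2 1.16 ± 0.20, adjusted p = 0.00513 in dxo1, log2 0.87 ± 0.22, adjusted p = 0.0205 in dxo1/cDXO1 and log2 1.11 ± 0.19, adjusted p = 0.00609 in rnmt1-3. XTH16 was higher in all 3 as well, with the mock values above giving differences of 0.85 ± 0.10 in dxo1, 0.95 ± 0.11 in dxo1/cDXO1 and 0.75 ± 0.11 in rnmt1-3 (log2, SE). XTH15, a shade-induced member, had 27.2, 30.2 and 32.8 RPKM in dxo1/cDXO1 and 27.4, 28.1 and 30.8 RPKM in dxo1, against 5.96, 17.9 and 17.4 RPKM in WT. Only the first was called (log2 1.14 ± 0.34, adjusted p = 0.0416). The low WT value is that of replicate 1, and without it XTH15 was called higher in dxo1 and rnmt1-3 too, while without any 1 dxo1/cDXO1 library it was not (adjusted p up to 0.125).

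Among the abundant members, XTH7 was higher in dxo1, dxo1/cDXO1 and rnmt1-3 (log2 0.37, 0.40 and 0.71). XTH4, which acts in elongating and woody tissue, had 298, 355 and 351 RPKM in dxo1/cDXO1 and 363, 354 and 298 RPKM in rnmt1-3 against 195, 263 and 243 RPKM in WT, without overlap, and differed by 0.53 and 0.54. XTH33 was higher in dxo1 (log2 0.85 ± 0.22, adjusted p = 0.0259) and dxo1/cDXO1 (log2 0.86 ± 0.23, adjusted p = 0.0277) but was 0.06 (adjusted p = 0.895) in rnmt1-3, with the values given above. XTH5, XTH17 and XTH32 were each called in 1 mutant, XTH5 and XTH17 in dxo1/cDXO1 (0.66 and 0.56) and XTH32 in rnmt1-3 (0.47).

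The members called lower than in WT were XTH13 in all 3 mutants and XTH12, XTH14 and XTH26 in rnmt1-3. XTH13, with the mock values above, was lower in dxo1 (log2 -1.04 ± 0.21, adjusted p = 0.0093), dxo1/cDXO1 (log2 -1.28 ± 0.35, adjusted p = 0.0311) and rnmt1-3 (log2 -1.65 ± 0.27, adjusted p = 0.00493). The dxo1/cDXO1 call was lost without WT mock replicate 2 or 3, or without dxo1/cDXO1 replicate 1 or 2 (adjusted p up to 0.12). XTH12 was lower in rnmt1-3, where the 3 libraries all lay under the lowest WT library (log2 -1.08 ± 0.20, adjusted p = 0.00891). XTH26 was lower there as well (log2 -1.69 ± 0.39, adjusted p = 0.0188), a call lost without WT mock replicate 2 or 3 or any 1 rnmt1-3 library (adjusted p up to 0.0887). XTH14 had 15.8, 11.2 and 14.5 RPKM in rnmt1-3 against 27.5, 24.4 and 21.7 RPKM in WT (log2 -0.82 ± 0.15, adjusted p = 0.00909). In rnmt1-3 none of the 7 root hair markers was called, their median was -0.54 on the log2 scale, and their sum was 29.2 to 32.4 RPKM against 28.9 to 50.4 RPKM in WT. In dxo1 1 marker and in dxo1/cDXO1 2 markers were higher than in WT, with none lower. The part of root hair cells was not tested.

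With ABA, the mutants were again set against WT, and these comparisons share the 3 WT ABA libraries. In dxo1 8 of 29 members were higher and 5 lower, beside 22.6% and 21.2% of all genes. In dxo1/cDXO1 10 were higher and 5 lower (23.6% and 21.8%), and in rnmt1-3 9 were higher and 7 lower (19.7% and 16.6%). Changes in the higher direction were small, none over 2-fold. Of all tested genes, 938 of 20078, 967 of 20036 and 655 of 20032 were called higher by over 2-fold in the same order. Of the 7 touch and handling genes, 4 were higher in dxo1 (list median 0.40 on the log2 scale), 3 in dxo1/cDXO1 (0.22) and 1 in rnmt1-3 (0.01), with none lower, and their part in the XTH values was not tested. XTH18 had 56.9, 45.7 and 42.8 RPKM in dxo1, 42.5, 44.6 and 40.9 RPKM in dxo1/cDXO1 and 55.8, 53.7 and 41.1 RPKM in rnmt1-3 against 28.1, 29.8 and 27.6 RPKM in WT. XTH15 had 29.7, 31.0 and 35.7 RPKM in dxo1 and 34.7, 32.3 and 36.0 RPKM in dxo1/cDXO1 against 20.1, 15.2 and 18.6 RPKM in WT. In both genes these libraries lay above all WT libraries. The log2 differences of XTH18 were 0.77, 0.59 and 0.82 and those of XTH15 0.84, 0.95 and 0.37 in the order dxo1, dxo1/cDXO1 and rnmt1-3. XTH4, XTH16 and XTH17 were called higher in all 3 as well, by 0.49 to 0.63, 0.37 to 0.42 and 0.50 to 0.73.

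**Figure D4:**
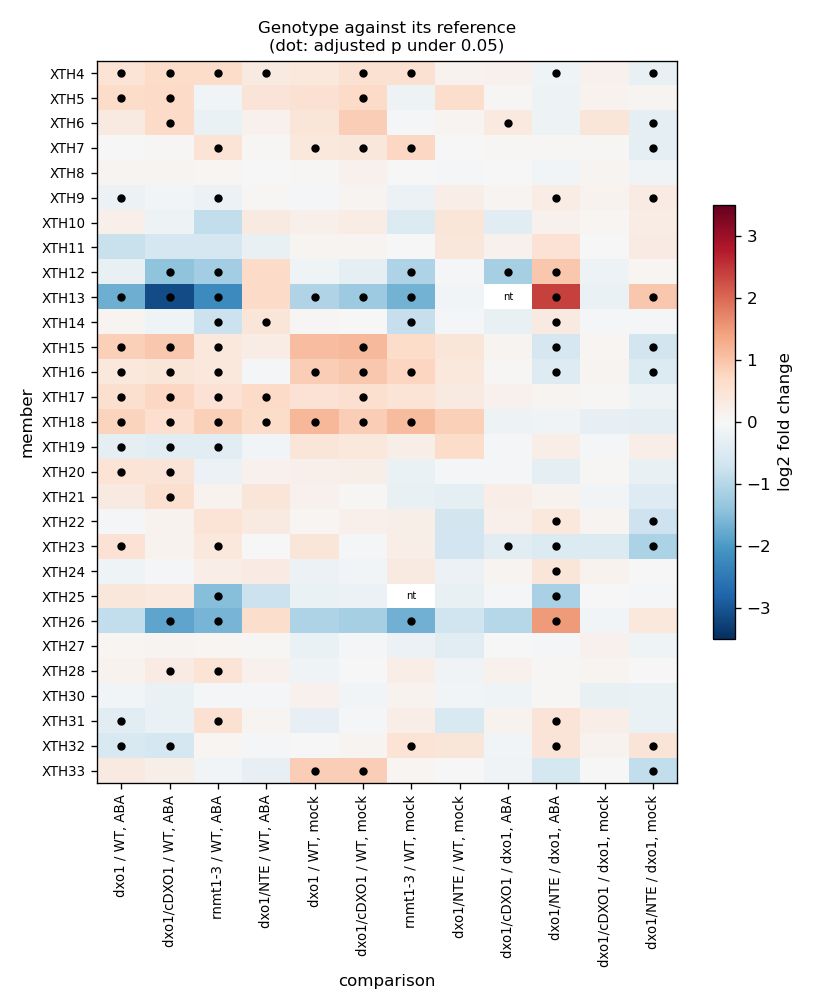
Log2 fold change of the first over the second genotype for the 29 tested members (rows), in ABA and in mock, with red for higher and blue for lower in the first genotype, a dot where the adjusted p was under 0.05, and nt for not tested. XTH13 is blue with a dot for all 3 capping mutants against WT in ABA and in mock, and red with a dot for dxo1/NTE against dxo1.

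Differences of over 2-fold with ABA were all in the lower direction and in members of low level. They numbered 1 in dxo1, 3 in dxo1/cDXO1 and 4 in rnmt1-3. Of all tested genes, 474 of 20078, 587 of 20036 and 419 of 20032 were called lower by over 2-fold. XTH13 was lower in dxo1 (log2 -1.70 ± 0.43, adjusted p = 0.00658), dxo1/cDXO1 (log2 -3.12 ± 0.66, adjusted p = 0.00163) and rnmt1-3 (log2 -2.24 ± 0.52, adjusted p = 0.00446). XTH26 was lower in dxo1/cDXO1 (log2 -1.85 ± 0.43, adjusted p = 0.00344) and rnmt1-3 (log2 -1.64 ± 0.44, adjusted p = 0.0107), the second being lost without WT ABA replicate 3 or rnmt1-3 ABA replicate 1 (up to 0.0691). XTH12 was lower in the same pair (log2 -1.40 ± 0.35, adjusted p = 0.0053 in dxo1/cDXO1 and log2 -1.22 ± 0.40, adjusted p = 0.0299 in rnmt1-3, where libraries overlapped). The rnmt1-3 call of XTH12 was lost without WT ABA replicate 2 or 3 or rnmt1-3 ABA replicate 1 or 3 (adjusted p up to 0.141). XTH14 had 11.8, 12.2 and 12.0 RPKM in rnmt1-3 against 17.1, 22.5 and 21.4 RPKM in WT (log2 -0.76 ± 0.11, adjusted p = 0.00017). XTH25 had 0.612, 0.208 and 0.616 RPKM in rnmt1-3 and 2.35, 0.723 and 1.00 RPKM in WT (log2 -1.48 ± 0.51, adjusted p = 0.0358), which was lost without WT ABA replicate 1 or any 1 rnmt1-3 library (up to 0.201).

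Root hair markers were read beside these members. With ABA, 5 of the 7 were lower in rnmt1-3 (LRX1, PRP1, PRP3, COBL9 and EXPA18, list median -0.91 on the log2 scale), 3 were lower in dxo1/cDXO1 (LRX1, PRP1 and PRP3, median -0.42) and 1 was higher in dxo1 (EXPA7, median -0.15). Their sum was 24.7 to 31.0 RPKM in rnmt1-3, 31.7 to 43.1 RPKM in dxo1/cDXO1 and 47.8 to 49.9 RPKM in dxo1 against 40.0 to 58.4 RPKM in WT. The summed range lay under that of WT in rnmt1-3, overlapped it in dxo1/cDXO1 and lay within it in dxo1. The part of root hair cells in the lower XTH levels was not tested.

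**Figure D5:**
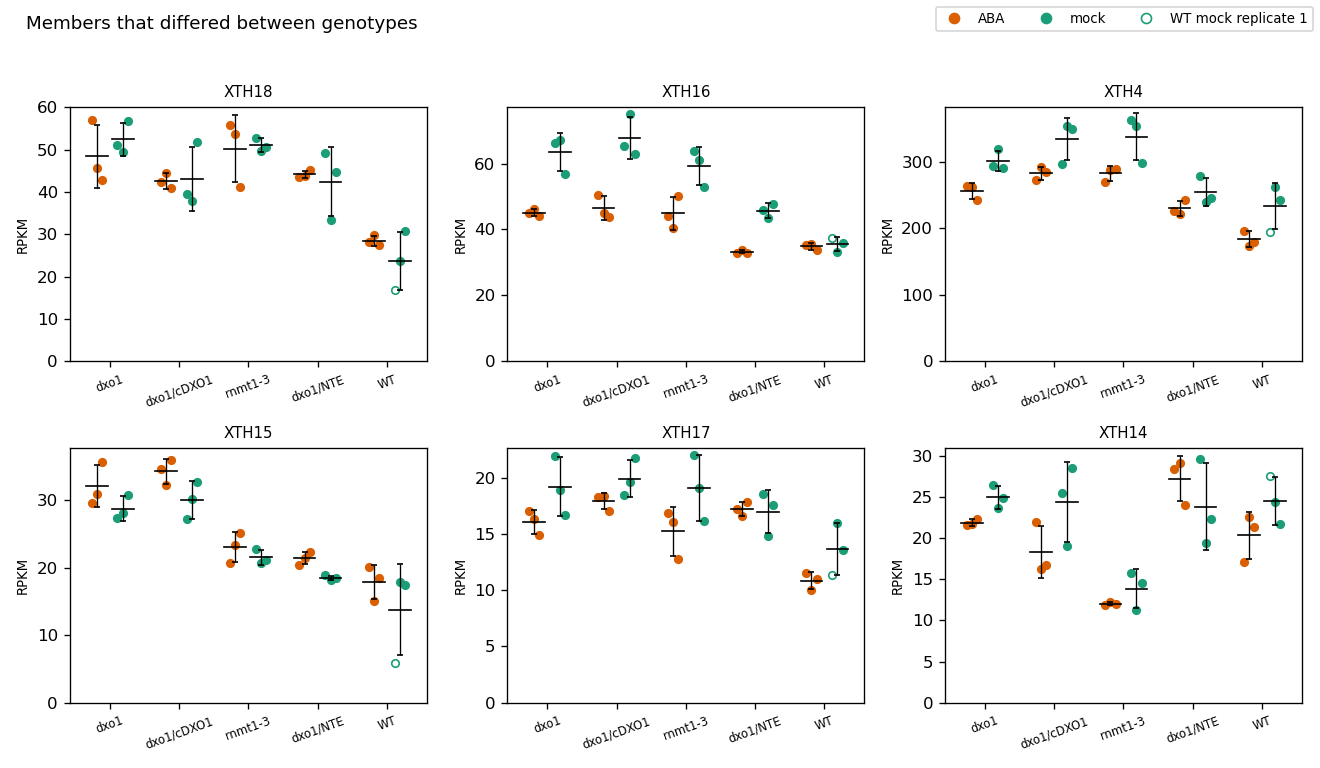
RPKM (from 0) of 6 members in each library, with ABA left of mock within each genotype, points for libraries, a line for the mean and bars for the SD (n = 3); the open point is WT mock replicate 1. XTH18 is lowest in WT, XTH15 is highest in dxo1 and dxo1/cDXO1, and XTH14 is lowest in rnmt1-3.

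Between dxo1/NTE and WT, few genes of any kind were called in the main fits. In mock no member was called by edgeR, beside 0.85% and 0.755% of all genes higher and lower. At an unadjusted p under 0.05, 8 members passed, where 19.6% of all genes did, and DESeq2 called 4 members, XTH5, XTH16 and XTH18 higher and XTH31 lower, beside 2.34% and 2.85% of all genes. Without WT mock replicate 1, edgeR called 8 members, 4 higher (XTH5, XTH16, XTH18 and XTH32) and 4 lower (XTH22, XTH23, XTH26 and XTH31), beside 6.44% and 7.66% of all genes. With ABA 4 of 29 tested members were higher and none was lower, beside 4.62% and 3.38% of all genes. They were XTH4 (0.33), XTH14 (0.42), XTH17 (0.66) and XTH18 (0.63). The total was 2 without WT ABA replicate 3 or without dxo1/NTE ABA replicate 1 or 2. XTH18 had 43.6, 43.8 and 45.2 RPKM in dxo1/NTE against 28.1, 29.8 and 27.6 RPKM in WT, so that all 4 mutant backgrounds lay above WT with ABA for this gene. XTH13, lower in the capping mutants, differed from WT in dxo1/NTE by -0.10 ± 0.21 in mock (adjusted p = 0.823) and by 0.68 ± 0.35 with ABA (adjusted p = 0.271).

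The transgene was also compared with its own background. In mock, dxo1/NTE had 3 members higher and 8 lower than dxo1, beside 14.8% and 17.8% of all genes. XTH23, a close relative of the touch gene XTH22, had 17.8, 12.4 and 13.3 RPKM in dxo1/NTE against 25.6, 27.0 and 40.0 RPKM in dxo1, without overlap (log2 -1.10 ± 0.17, adjusted p = 0.000387). XTH33 and XTH22 were lower too (-0.85 and -0.73), as were XTH15 and XTH16 (-0.65 and -0.48). XTH13 was higher (log2 0.94 ± 0.22, adjusted p = 0.00662). In the touch and handling list, 3 of 7 genes were lower and none higher (median -0.61 on the log2 scale). The list summed to 110 to 134 RPKM in dxo1/NTE and 124 to 197 RPKM in dxo1, with overlapping ranges. Its part in the XTH22 and XTH23 values was not tested. The total of 11 became 7 without any 1 dxo1 library and 6 without dxo1/NTE replicate 3.

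With ABA, dxo1/NTE had 9 members higher and 5 lower than dxo1, beside 17.2% and 18.6% of all genes. The largest differences in the higher direction were those of XTH13, XTH26 and XTH12. XTH13 had 1.86, 3.14 and 1.69 RPKM in dxo1/NTE against 0.286, 0.577 and 0.416 RPKM in dxo1 (log2 2.39 ± 0.38, adjusted p = 0.0002). XTH26 had 2.15, 2.11 and 2.16 RPKM against 0.761, 0.542 and 0.956 RPKM (log2 1.5 ± 0.29, adjusted p = 0.00101), and XTH12 3.55, 3.69 and 3.55 RPKM against 1.66, 1.95 and 2.01 RPKM (log2 0.94 ± 0.21, adjusted p = 0.00234). None of these overlapped. Of the root hair markers 2 of 7 were higher and none lower (PRP1 and PRP3, list median 0.26), with a sum of 52.6 to 65.8 RPKM in dxo1/NTE and 47.8 to 49.9 RPKM in dxo1, and their part was not tested. XTH25 was lower, at 0.937, 0.516 and 0.969 RPKM in dxo1/NTE and 1.34, 1.58 and 2.38 RPKM in dxo1 (log2 -1.14 ± 0.35, adjusted p = 0.0174). That call was lost without dxo1 ABA replicate 3 or dxo1/NTE ABA replicate 2, and with all 30 libraries in the fit (up to 0.109). XTH15 and XTH16 were lower by 0.58 and 0.44 on the log2 scale.

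Few genes of any kind were called when the line with the catalytic domain was set against dxo1. In mock no member was called in dxo1/cDXO1 against dxo1, beside 0.857% of all genes in either direction. At an unadjusted p under 0.05, 6 members passed by edgeR and 6 by DESeq2, which called none after adjustment, and 12.2% of all genes passed in edgeR. With the replicate number as a block, since same-numbered libraries of this pair of groups deviated together, XTH6 and XTH27 were called higher and XTH18 and XTH23 lower, beside 6.27% of all genes. Without dxo1/cDXO1 replicate 3 and with no block, 3 members were called. With ABA, 1 of 28 members was higher and 2 were lower, beside 6.1% of all genes in either direction. XTH12 had 0.884, 0.885 and 0.752 RPKM in dxo1/cDXO1 against 1.66, 1.95 and 2.01 RPKM in dxo1, without overlap (log2 -1.16 ± 0.30, adjusted p = 0.0252). The call was lost in 5 of 6 fits that left out 1 library (all but the one without dxo1 ABA replicate 1, adjusted p up to 0.0921). It was also lost with all 30 libraries in the fit (adjusted p up to 0.145 over all alternatives). XTH23 was lower by 0.38 and XTH6 higher by 0.34 on the log2 scale. Without dxo1 ABA replicate 3 or dxo1/cDXO1 ABA replicate 2, 1 member was called.

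Genes for the enzymes that make and trim the substrate of XTH were read beside the family. Of 16 genes of xyloglucan synthesis, ABA raised 4 and lowered 1 in dxo1, beside 14.1% and 11.8% of all genes. In dxo1/cDXO1 3 rose and 2 fell (13.6% and 10.9%), and in rnmt1-3 3 rose and 1 fell (14.7% and 11.4%). In dxo1/NTE 3 rose and 1 fell (15.4% and 13.4%), and in WT 1 rose and 0 fell (10% and 6.47%). XLT2, a galactosyltransferase that decorates the xyloglucan side chain, rose in all 5 genotypes, by 1.11, 0.96, 1.30 and 0.91 in the mutants and 1.37 in WT on the log2 scale. CSLC4, the main synthase of the xyloglucan backbone, was lower with ABA in the 4 genotypes other than WT, by 0.34 to 0.46, and gave -0.17 in WT (adjusted p = 0.403). Against WT in mock, CSLC4 was higher in dxo1, dxo1/cDXO1 and rnmt1-3 by 0.50, 0.62 and 0.57. Of the 16 synthesis genes, 2, 2 and 1 were called higher there and 0 lower, beside 13%, 12.1% and 10.1% of all genes higher. Of 3 genes of xyloglucan breakdown, BGAL10, a beta-galactosidase that trims xyloglucan, was lower than in WT in the same genotypes (-0.72, -0.79 and -0.61), and it was higher in dxo1/NTE than in dxo1 (0.45). Against WT in mock, 1 of the 3 was called lower and 0 higher in each, beside 11.8%, 11.4% and 8.76% of all genes lower. Against dxo1, dxo1/NTE had 2 higher and 1 lower in mock (14.8% and 17.8% of all genes), and 1 higher and 1 lower with ABA (17.2% and 18.6%).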

How the data were processed

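RNA of 30 whole-seedling samples was sequenced. Per the labels and methods, the authors checked reads with FastQC 0.11.8, aligned them to TAIR10 with HISAT2 2.2.1 and counted them per gene with featureCounts (Subread 2.0.8), and the deposited values are raw counts with a gene length. The strand setting and the treatment of multi-mapping reads are not given in the sources used here. Genes were kept by filterByExpr (minimum count 10, minimum total 15) in the libraries of each comparison, scaled by TMM and tested with edgeR 4.0.16 in R 4.3.3 (quasi-likelihood, two-sided), with p-values adjusted by Benjamini-Hochberg across the tested genes and a threshold of 0.05. RPKM used the deposited length and TMM factors over 30 libraries. Alternatives were DESeq2 1.42.0, RLE scaling, no filter, all 30 libraries in the fit, a replicate block, the study's threshold and each library left out. The edgeR step was checked on counts simulated after the ABA comparison in dxo1 only, with the same dispersion for every gene. That check did not cover the genotype by ABA terms, changes in genes of low count or an outlying library. The XTH members and the marker and pathway lists were chosen with earlier results of these data known. Values in every library were given for members called with a change of over 2-fold in a comparison (at most the 6 largest), the 5 most abundant members and those with at most 3 counts were named, and the values of XTH4, XTH14, XTH16 and XTH22 were added after they were seen. Replicate numbers were taken to pair groups where all 3 correlations of same-numbered deviations were over 0.1, which held for 2 of 45 pairs of groups (dxo1/cDXO1 with dxo1, and dxo1/cDXO1 with rnmt1-3, in mock). Sequences came from RefSeq TAIR10.1. Precision is limited by totals of 17961410 to 23249299 counts per library.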

Additional observations from a re-analysis of the deposited data

How the results depend on the processing

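No direction was reversed, and neither the median-ratio (RLE) scaling nor dropping the filter on low counts moved a count of called members by over 1.5 times. Of 473 alternatives for 43 single-member tests, 432 kept the call and 41 lost it. DESeq2 called 10 members for dxo1 against WT in mock, 4 for dxo1/NTE against WT in mock, and 2, 1 and 1 for the ABA terms of dxo1, dxo1/cDXO1 and dxo1/NTE. Fitting all 30 libraries gave 11 for dxo1 and 8 for dxo1/NTE against WT in mock, 7 for dxo1/NTE against dxo1 in mock and 7 with ABA, 0 for dxo1/cDXO1 against dxo1 with ABA, and 1 each for the ABA terms of dxo1/cDXO1 and dxo1/NTE. With the study's rule of an unadjusted p under 0.05 and a 2-fold change, ABA called 6 in dxo1, 6 in dxo1/cDXO1, 4 in rnmt1-3, 1 in dxo1/NTE and 6 in WT. That rule gave 3 for dxo1/cDXO1 and 4 for rnmt1-3 against WT in mock, and 1, 3, 4 and 0 for dxo1, dxo1/cDXO1, rnmt1-3 and dxo1/NTE against WT with ABA. It gave 1 in mock and 3 with ABA for dxo1/NTE against dxo1, and 1 for dxo1/cDXO1 against dxo1 with ABA. The causes were not tested. In this section, where no share of all genes is given for a setting, a changed count cannot be read as particular to the XTH family.

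With the replicate number as a block, 7 members were called for dxo1/NTE against WT with ABA and 4 for dxo1/cDXO1 against dxo1 in mock, and no other count moved by over 1.5 times. Of these, only the mock libraries of dxo1/cDXO1 and dxo1 met the pairing rule.

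With each library left out in turn, ABA called 13 to 16 members in dxo1, 12 to 15 in dxo1/cDXO1, 12 to 16 in rnmt1-3, 10 to 15 in dxo1/NTE and 6 to 16 in WT. Against WT in mock the ranges were 3 to 12 for dxo1, 2 to 13 for dxo1/cDXO1, 6 to 13 for rnmt1-3 and 0 to 8 for dxo1/NTE. The highest of each came without WT mock replicate 1, where 43.7%, 40.1%, 36.8% and 14.1% of all genes were called in that order. With ABA the ranges against WT were 10 to 17, 13 to 19, 12 to 17 and 2 to 6 in the same order. For dxo1/NTE against dxo1 they were 6 to 13 in mock and 12 to 13 with ABA, for dxo1/cDXO1 against dxo1 0 to 3 and 1 to 3, and for the ABA terms 0 to 1 in dxo1, dxo1/cDXO1 and dxo1/NTE and 0 in rnmt1-3. XTH13, XTH25 and XTH26 rest on few counts, and 3 libraries a group limit all tests.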

Other observations

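Expansins, the wall proteins that loosen cellulose and hemicellulose contacts without cutting them, were read in the same fits. Of 29 expansin genes counted, 17 were tested for ABA in WT and 18 in each other genotype. ABA raised 3 and lowered 8 in dxo1, beside 14.1% and 11.8% of all genes. In dxo1/cDXO1 2 rose and 9 fell (13.6% and 10.9%), and in rnmt1-3 2 rose and 11 fell (14.7% and 11.4%). In dxo1/NTE 1 rose and 9 fell (15.4% and 13.4%), and in WT 1 rose and 6 fell (10% and 6.47%). EXPA1 fell by 2.33, 2.52, 2.39 and 2.61 on the log2 scale in dxo1, dxo1/cDXO1, rnmt1-3 and dxo1/NTE and by 2.70 in WT. EXPA16 rose by 1.56, 1.6, 1.67 and 1.63 in the same order and by 2.28 in WT. EXPB2 was higher than in WT in mock dxo1 (2.50, edgeR adjusted p = 0.00387) and in mock rnmt1-3 (1.78, adjusted p = 0.0307), and it was lower in dxo1/NTE than in dxo1 (-2.35, adjusted p = 0.000309). In mock dxo1/cDXO1 no expansin was called against WT with a change of over 2-fold. Of 18 tested against WT in mock, 2 were higher and 1 lower in dxo1, beside 13% and 11.8% of all genes. In dxo1/cDXO1 2 were higher and 1 lower (12.1% and 11.4%), and in rnmt1-3 3 were higher and 0 lower (10.1% and 8.76%).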
